A study of Mus musculus with 10 samples.

Results

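Hoxa2, Hoxa3, Hoxa4 and Hoxa5, genes of the anterior part of the mouse Hoxa cluster, were followed through 5 maps of trimethylated lysine 27 of histone H3 (H3K27me3). The members were chosen by symbol from the GENCODE annotation of mm9, and all 4 were found among 22380 protein-coding gene entries and 37310 entries in all. For each gene, the bases lying in peaks were counted from 5 kb upstream of the transcription start site (TSS) to the end of the gene, a stretch called the gene window here. The covered length says how far a line's peaks reach and not how strong the mark is, because the peak lists hold positions only.

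Hox genes encode homeodomain transcription factors that give cells their position along the body axis, and their order in a cluster follows the order in which they are used from head to tail. H3K27me3 is written by polycomb repressive complex 2 (PRC2), whose catalytic subunit is Ezh2, and silent Hox clusters are among its best known targets. Hoxa genes are transcribed in blood stem and progenitor cells and are turned down as blood cells mature.

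The parental line was an Eμ-Myc Cdkn2a-/- B-cell lymphoma, in which a Myc transgene is driven by the immunoglobulin heavy chain enhancer and the tumour suppressor locus Cdkn2a is deleted. It was grown in culture from the lymphoma of a C57BL/6J mouse, so all 5 lines go back to 1 parental line and share both alleles. Stepwise selection in mafosfamide, an alkylating agent related to cyclophosphamide, gave the resistant lines R100, R500, R1000 and R4000 at 100, 500, 1000 and 4000 nM. Chromatin for ChIP-seq came from lines kept without the drug at that time. The study made replicate ChIP-seq profiles of each line, and 1 H3K27me3 peak list per line was used here, so nothing measures the error of a single line and the lines could not be compared by a test. The comparison asks where the mark lies over these genes before and after selection for resistance.

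With the lines in the order parental, R100, R500, R1000 and R4000, which is kept below wherever 5 values are given in a row, the lists held 10778, 25180, 21888, 9595 and 6820 distinct peaks and covered 1.63, 5.04, 4.53, 1.61 and 1.07 Mb of the genome. Read depth behind the lists is unknown. Relative to the parental line, the covered length of the resistant lines was 3.09, 2.78, 0.988 and 0.658 times, and on chromosome 6, which carries the Hoxa cluster, it was 2.22, 1.86, 0.740 and 0.567 times. H3K27me3 marks silent genes, and the 7 B-cell markers given here (Cd79a, Cd79b, Ms4a1, Pax5, Ebf1, Blk and Cd22) were all at 0 bp in the parental line. In the 4 resistant lines, 2, 3, 1 and 0 of them had at least 150 bp in peaks, with 1000 bp at Cd79b in R100 as the largest value. Of 5 T-cell markers, 2, 3, 4, 1 and 0 had at least 150 bp. Tcf7 had the most, with 450, 1850, 1100, 200 and 100 bp, whereas Cd8a had 0 bp in every line. No myeloid marker reached 150 bp in any line. Of 3 erythroid markers 0, 1, 1, 1 and 1 did so, and of 4 fibroblast markers 0, 1, 1, 1 and 1. Most markers of each of these lineages were also at 0 bp in the parental line, so the 0 bp is not particular to the B-cell markers. The mark alone does not show which genes were transcribed.

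All 4 genes lie on the minus strand of chromosome 6 and are read from high to low positions. Hoxa2 (ENSMUSG00000014704) runs from 52112350 to 52115412 of mm9, Hoxa4 (ENSMUSG00000000942) from 52139670 to 52141752, and Hoxa5 (ENSMUSG00000038253) from 52151753 to 52154586. Hoxa3 has 2 entries (ENSMUSG00000059723 and ENSMUSG00000079560), which were joined, and is annotated from 52113358 to 52163338 because of transcripts that start far upstream of its shorter one. Its window of 55.0 kb therefore spans Hoxa4, Hoxa5 and Hoxa6, reaches into Hoxa7, and shares 87.5% of the Hoxa2 window. The windows of Hoxa2, Hoxa4 and Hoxa5 are 8.06, 7.08 and 7.83 kb long and share no base with each other. The 4 windows joined cover 56.0 kb, and values for the joined windows count each base once.

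The 250 bases just upstream of the TSS are shown for each member, read 5′ to 3′ on the minus strand of mm9 with every CG in capitals, because CG-dense promoters are those PRC2 is known to occupy. Over 22380 protein-coding promoters of the same length, the median number of CG was 8, with quartiles at 3 and 18.
Hoxa2, chr6:52115413-52115662: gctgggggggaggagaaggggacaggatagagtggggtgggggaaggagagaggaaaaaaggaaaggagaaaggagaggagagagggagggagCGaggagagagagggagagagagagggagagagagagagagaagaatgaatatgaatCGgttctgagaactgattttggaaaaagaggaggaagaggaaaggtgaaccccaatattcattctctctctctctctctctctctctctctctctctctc
Hoxa3, chr6:52163339-52163588: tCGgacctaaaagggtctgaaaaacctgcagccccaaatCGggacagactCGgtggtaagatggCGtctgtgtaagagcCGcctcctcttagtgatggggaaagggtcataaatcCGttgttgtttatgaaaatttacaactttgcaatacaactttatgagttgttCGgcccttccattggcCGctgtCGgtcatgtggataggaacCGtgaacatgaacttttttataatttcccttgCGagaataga
Hoxa4, chr6:52141753-52142002: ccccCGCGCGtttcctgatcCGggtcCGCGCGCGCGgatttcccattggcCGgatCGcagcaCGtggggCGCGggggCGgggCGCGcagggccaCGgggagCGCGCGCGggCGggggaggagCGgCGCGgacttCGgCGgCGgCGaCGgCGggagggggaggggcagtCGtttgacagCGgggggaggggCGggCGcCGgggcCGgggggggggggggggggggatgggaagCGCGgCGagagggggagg
Hoxa5, chr6:52154587-52154836: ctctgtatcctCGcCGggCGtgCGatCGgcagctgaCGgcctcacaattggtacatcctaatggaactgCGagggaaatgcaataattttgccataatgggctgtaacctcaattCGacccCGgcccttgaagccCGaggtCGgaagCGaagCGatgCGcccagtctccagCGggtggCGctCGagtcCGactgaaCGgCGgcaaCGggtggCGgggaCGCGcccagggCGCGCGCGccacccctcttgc

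The Hoxa4 promoter held 41 CG, more than 98.7% of all promoters, and the Hoxa5 promoter held 28, more than 91.7%. The Hoxa3 promoter held 11 CG and the Hoxa2 promoter, largely a run of purines and a CT repeat, held 2. Peaks did not follow this order. The promoter stretch of Hoxa2 had 0 bp in peaks in every line, as did that of Hoxa5. Peaks touched 2 bp of the Hoxa4 stretch in R100 and 52 bp in R500, and none in the other lines. The Hoxa3 stretch, at the 5′ end of the long transcript between Hoxa6 and Hoxa7, was covered in full (250 bp) in R100, over 162 bp in the parental line, R500 and R1000, and not at all (0 bp) in R4000.

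Motifs were searched in the same stretches on both strands. The E-box CAGGTG (or CACCTG), a sequence bound by E proteins such as E2a, was found in none of the 4 promoters and in 17.0% of all promoters. The E-box CAGCTG was found 1 time in the Hoxa5 promoter and in 11.8% of all promoters. A direct repeat of GGTCA with 5 bases between, one form of retinoic acid response element, was found in none of the 4 and in 0.0447% of all promoters. A match is a run of letters and not a bound site.

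**Figure D1:**
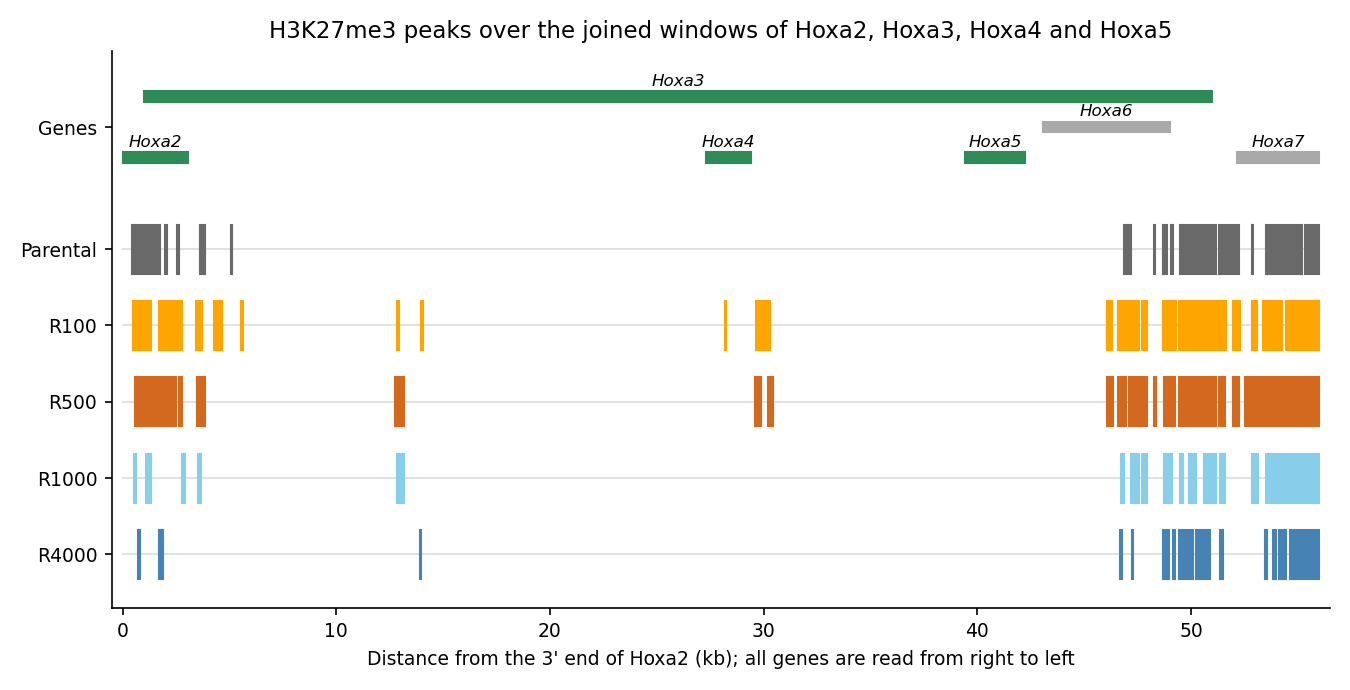
H3K27me3 peaks of each line (boxes, 1 row per line) along the joined windows of the 4 genes, with distance from the 3′ end of Hoxa2 in kb on the horizontal axis and genes above (green for the members, grey for Hoxa6 and for the part of Hoxa7 inside the windows). Peaks gather at both ends, over Hoxa2 and from Hoxa6 to Hoxa7, where the long Hoxa3 transcript starts. The parental line has none over the 41.8 kb between these ends.

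In the parental line the peaks of the joined windows fell into a cluster over Hoxa2 and another from Hoxa6 to Hoxa7, with nothing between. The latter cluster covers the TSS of the long Hoxa3 transcript. The longest stretch without a parental peak ran from 52117451 to 52159200, which is 41.8 kb, and it held the shorter Hoxa3 transcript, all of Hoxa4 and all of Hoxa5. In R100 this stretch was broken by small peaks, and the longest runs without a peak were 15.8 and 14.2 kb. In R500 they were 16.5 and 15.6 kb. In R1000 and R4000 the longest run was again over 30 kb, at 33.6 and 32.7 kb. In no line was there a peak over the 15.6 kb from 52142801, upstream of Hoxa4, through Hoxa5 to 52158400, over 14.2 kb between 52126401 and 52140550, or over 7.10 kb between 52118001 and 52125100. The last of these holds both exons of the shorter Hoxa3 transcript. No unknown bases lie in the joined windows.

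Hoxa2, the selector gene of the second branchial arch and the most anterior Hox gene of the hindbrain, had a larger share of its gene window in peaks than the other members in the parental line, R100 and R500, an order that turns against Hoxa3 close to the TSS, as given below. Its peaks covered 1800 bp of the window before selection, reached 2650 bp in R100 and 2400 bp in R500, and came to 550 bp in R1000 and 300 bp in R4000. As shares of the 8.06 kb these are 22.3%, 32.9%, 29.8%, 6.82% and 3.72%. R1000 and R4000 stood well below the other lines, at 0.306 and 0.167 times the parental length, whereas R100 and R500 were at 1.47 and 1.33 times. With peaks within 1000 bp joined, R500 was below the parental line, at 3250 against 3901 bp. Taken as shares of 50-bp bins, the 95% Wilson intervals were 16.6 to 29.4% for the parental line, 26.1 to 40.5% for R100, 3.86 to 11.8% for R1000 and 1.72 to 7.89% for R4000. Such intervals cover the counting of bins only, and neighbouring bins of 1 peak are not independent.

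Most of the Hoxa2 coverage lay in the gene body. In the parental line 1024 bp were exonic, 476 bp intronic and 300 bp upstream of the TSS. In R100 the exonic part was 1660 bp and the upstream part 700 bp. R4000 had 100 bp in exon, 200 bp in intron and 0 bp upstream. In the 4 kb centred on the TSS the lines had 1151, 1989, 1939, 450 and 200 bp. The parental line had 1 peak of 1300 bp here, from 52112801 to 52114100, and R500 had 1 of 1900 bp, from 52112951 to 52114850. The widest peak of R1000 was 250 bp (52113451 to 52113700) and that of R4000 200 bp (52114051 to 52114250). The R4000 peak is shown because it is the widest of that line over the gene. Of its 200 bp, 50 bp were also in parental peaks. It lies in the intron, with its 6 CG in capitals, on the minus strand of mm9.
Hoxa2 intron, chr6:52114051-52114250: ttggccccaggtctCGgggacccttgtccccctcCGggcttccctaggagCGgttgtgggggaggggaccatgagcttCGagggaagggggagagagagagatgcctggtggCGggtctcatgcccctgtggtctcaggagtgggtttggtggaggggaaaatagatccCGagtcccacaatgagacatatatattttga

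The lines did not keep the same pieces of Hoxa2. R1000 and R4000 had 0 bp in common over the window. Of the 1800 parental bases, R100 also covered 1200 bp (66.7%) and R500 1500 bp (83.3%), whereas R1000 covered 400 bp (22.2%) and R4000 150 bp (8.33%). Seen from the other side, the shared bases were 72.7% of the R1000 coverage and 50% of the R4000 coverage. All 300 bp of R4000 lay inside the peaks of R100 and also inside those of R500. No base of the Hoxa2 window was covered in all 5 lines.

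Hoxa3 acts in the third pharyngeal arch, where the thymus and parathyroid glands form. Over its annotated window the lines had 6881, 10331, 10781, 5888 and 4088 bp in peaks. These are 12.5%, 18.8%, 19.6%, 10.7% and 7.44% of the window and 1.501, 1.57, 0.856 and 0.594 times the parental length in the resistant lines. R100 and R500 were above and R1000 and R4000 below the parental line, with R1000 nearest to it. Little of this lay on Hoxa3 exons, which carried 567 bp each in the parental line, R100 and R500, then 474 and 212 bp in R1000 and R4000. Much of it lay from Hoxa6 to Hoxa7, around the TSS of the long Hoxa3 transcript. In the 4 kb centred on that TSS the lines had 2750, 3001, 3051, 1501 and 1550 bp.

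The stretch beyond the Hoxa5 window, from 52159587 to 52168338, is reached by the Hoxa3 window alone. It holds the 5′ part of Hoxa6, the 3′ part of Hoxa7 and, between them, the TSS of the long Hoxa3 transcript. It had 5288, 6402, 7102, 4952 and 3738 bp in peaks, which is 60.4%, 73.1%, 81.1%, 56.6% and 42.7% of its 8.75 kb. Its share of all covered bases in the joined windows was 71.1%, 59.1%, 63.5%, 82.7% and 89.3%. Just upstream of the long Hoxa3 transcript, 363 to 512 bp from its TSS, a piece of 150 bp was covered in all 5 lines. It is shown with its 6 CG in capitals, on the minus strand, because the bases covered in every line all fell in this stretch.
Upstream of Hoxa3, chr6:52163701-52163850: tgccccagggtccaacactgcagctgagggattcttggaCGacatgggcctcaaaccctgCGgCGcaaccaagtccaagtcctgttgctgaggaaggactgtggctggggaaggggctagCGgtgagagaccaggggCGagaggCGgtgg

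With Hoxa3 taken instead as its shorter transcript, which was done after the data had been seen, the window held 0, 200, 400, 300 and 50 bp in peaks. These bases all lay between the Hoxa2 window and Hoxa4. The peaks of R100 (52125201 to 52125300), R500 (52125101 to 52125500) and R1000 (52125201 to 52125500) covered the annotated start, at 52125216, of the antisense long noncoding RNA 2700086A05Rik. The parental line and R4000 had no peak there, and the only R4000 peak of this interval lay at 52126251 to 52126300. The 5.00 kb between the Hoxa4 window and Hoxa5 held no peak in any line.

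Hoxa4, which patterns the neck vertebrae, had peaks in R100 and R500 only. The parental line, R1000 and R4000 had 0 bp in its window, R100 had 700 bp (9.88%) and R500 had 500 bp (7.06%). No fold is given, since the parental line is at 0. In R100 the peaks were 52140551 to 52140600, with 50 bp in an exon, and 52142001 to 52142650. In R500 they were 52141951 to 52142200 and 52142551 to 52142800. The lines shared 300 bp, which is 42.9% of the R100 coverage and 60% of the R500 coverage, in a piece 249 to 448 bp and a piece 799 to 898 bp upstream of the TSS. The nearer piece is shown because it is where both lines placed a peak that the other lines lacked. It holds 11 CG, in capitals on the minus strand, and it adjoins the far edge of the CG-dense promoter printed above.
Upstream of Hoxa4, chr6:52142001-52142200: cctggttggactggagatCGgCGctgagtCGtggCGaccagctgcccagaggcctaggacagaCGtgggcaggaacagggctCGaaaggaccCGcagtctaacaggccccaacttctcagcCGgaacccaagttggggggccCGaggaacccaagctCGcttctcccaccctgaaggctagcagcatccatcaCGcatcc

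Hoxa5, needed for lung and lower neck development and also active in blood progenitors, carried no peak within its gene or within 2 kb of its TSS in any line. Its window had 350, 886, 786, 186 and 100 bp in peaks, all of it more than 3.8 kb upstream, inside Hoxa6. These are 4.47%, 11.3%, 10.0%, 2.37% and 1.28% of the window and 2.53, 2.25, 0.531 and 0.286 times the parental length. R100 and R500 were again high and R1000 and R4000 low, but the low side depends on how peaks are joined. With peaks within 1000 bp joined, Hoxa5 was covered over 6.84% in R1000 and 7.48% in R4000, above the 4.47% of the parental line. The single parental peak of the window ran from 52159201 to 52159550. R100 covered all 350 bp of it, R500 200 bp (57.1%), and R1000 and R4000 none of it. The small R1000 and R4000 coverage lay wholly within bases covered in both R100 and R500.

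**Figure D2:**
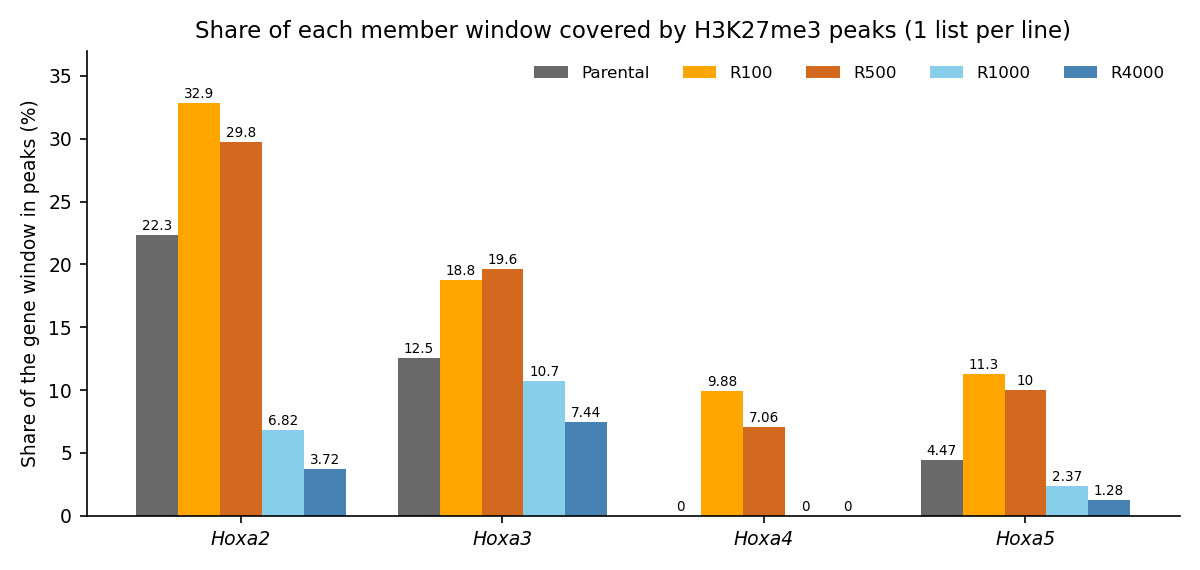
Share of each gene window covered by H3K27me3 peaks, in percent, with 1 bar per line and the value above it; there is 1 list per line and so no error bar. Hoxa2 drops from 22.3% in the parental line to 3.72% in R4000, and Hoxa4 is above 0 in R100 and R500 only.

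The order of the lines was the same at Hoxa2 and Hoxa5, with R100 highest, then R500, the parental line, R1000 and R4000. At Hoxa3 R500 stood above R100, and at Hoxa4 the parental line, R1000 and R4000 were level at 0. With 1 list per line, whether neighbours in these orders differ beyond their error was not tested. Between genes, the share of the window was highest at Hoxa2 in the parental line, at 22.3% against 12.5% for Hoxa3, 4.47% for Hoxa5 and none for Hoxa4. In R1000 and R4000 Hoxa3 was highest, at 10.7% and 7.44%. The order between genes depends on the window, since that of Hoxa3 is long. In the 4 kb centred on the TSS, Hoxa3 stood above Hoxa2 in the parental line (68.7% against 28.8%), R100 (75.01% against 49.7%) and R500 (76.3% against 48.5%).

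Over the joined windows the peaks covered 7438, 10838, 11188, 5988 and 4188 bp. Relative to the parental line these were 1.46, 1.504, 0.805 and 0.563 times. All 4 ratios were below those of the whole lists, whereas against chromosome 6 alone R100 and R500 were lower, R1000 was higher (0.805 against 0.740) and R4000 was close (0.563 against 0.567). As a share of all covered bases of its list, the joined windows took 0.456%, 0.215%, 0.247%, 0.371% and 0.390%, so on this scale R100 and R500 were at 0.472 and 0.542 times the parental share and the direction turned. R1000 and R4000 were at 0.815 and 0.856 times. Up to the end of the Hoxa5 window the covered length was 2150, 4436, 4086, 1036 and 450 bp. These are 2.06, 1.90, 0.482 and 0.209 times the parental value. The stretch left out holds the start of the long Hoxa3 transcript along with parts of Hoxa6 and Hoxa7.

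**Figure D3:**
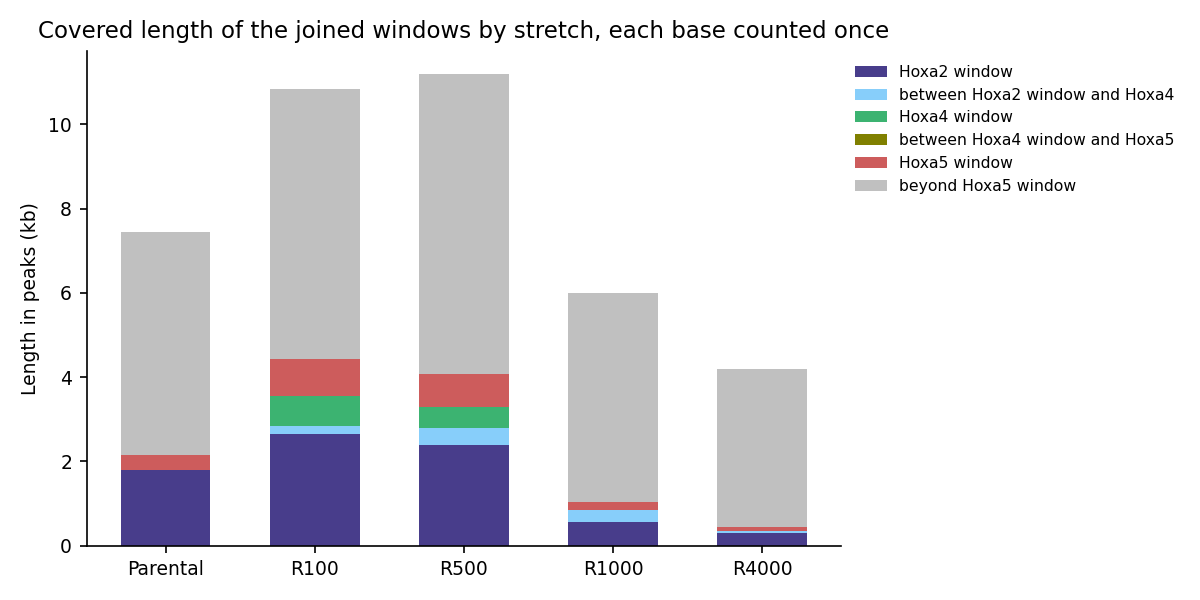
Length in H3K27me3 peaks over the joined windows, in kb, stacked by stretch with each base counted once, for the 5 lines. The grey stretch beyond the Hoxa5 window holds 71.1% of the covered length in the parental line and 89.3% in R4000, and the Hoxa2 window shrinks from 1.80 kb to 0.300 kb.

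The covered bases differed in how many lines shared them. Of 13488 bp covered in at least 1 line, 2338 bp (17.3%) were covered in all 5. Every one of these lay beyond the Hoxa5 window, in the stretch that holds the start of the long Hoxa3 transcript. Up to the end of the Hoxa5 window 5736 bp were covered in at least 1 line and 0 bp in all 5. R100 and R500 shared 9088 bp of the joined windows, which is 83.9% of the R100 and 81.2% of the R500 coverage, and 3250 bp covered in both were absent from the parental list. R1000 and R4000 shared 2888 bp, which is 48.2% and 69.0% of their coverage, but only 50 bp of this lay before the end of the Hoxa5 window. Just 150 bp covered in R1000 or R4000 were covered in no other line.

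To set the members beside other genes, a gene was called higher or lower where its covered length differed from the parental line at least 1.5-fold and by at least 150 bp, among protein-coding genes with at least 150 bp in either line. In R100 3 of the 4 members were higher and 0 lower, against 89.2% of tested genes higher and 2.36% lower. In R500 3 were higher and 0 lower, against 85.3% and 3.21%. These counts lie near the background and say nothing particular about the members. In R1000 0 were higher and 2 (Hoxa2 and Hoxa5) lower, against 38.7% and 25.6%, and in R4000 0 were higher and 3 (Hoxa2, Hoxa3 and Hoxa5) lower, against 26.5% and 44.7%. The calls share the parental list, and the windows overlap, so they are not independent of each other. Hoxa3 in R100, at 1.501 times, lies at the threshold, and Hoxa2, at 1.47 times, just under it. The lower call of Hoxa5 in R1000, at 186 against 350 bp, is only just past the 150 bp minimum. With peaks within 1000 bp joined, Hoxa5 was instead higher in R1000 and R4000, at 536 and 586 against 350 bp.

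Among genes with at least 150 bp in both lines, the median ratio to the parental line was 2.57, 2.44, 1.06 and 0.765 over the 4 resistant lines, with quartiles of 0.716 and 1.58 in R1000 and 0.50 and 1.17 in R4000. Hoxa2 was below the lower quartile in both R1000 and R4000, and in R100 and R500 it was below the lower quartiles of 1.67 and 1.63. Hoxa3 was also below the lower quartiles in R100 and R500, at 1.501 and 1.57 times, and inside the quartiles in R1000 and R4000. Hoxa5 was close to the median in R100 and R500 and below the lower quartile in R1000. In R4000 Hoxa5 had 100 bp and so is not among the genes compared. The minimum in both lines removes genes that lost nearly all their coverage, so these medians and quartiles cannot show the strongest losses.

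**Figure D4:**
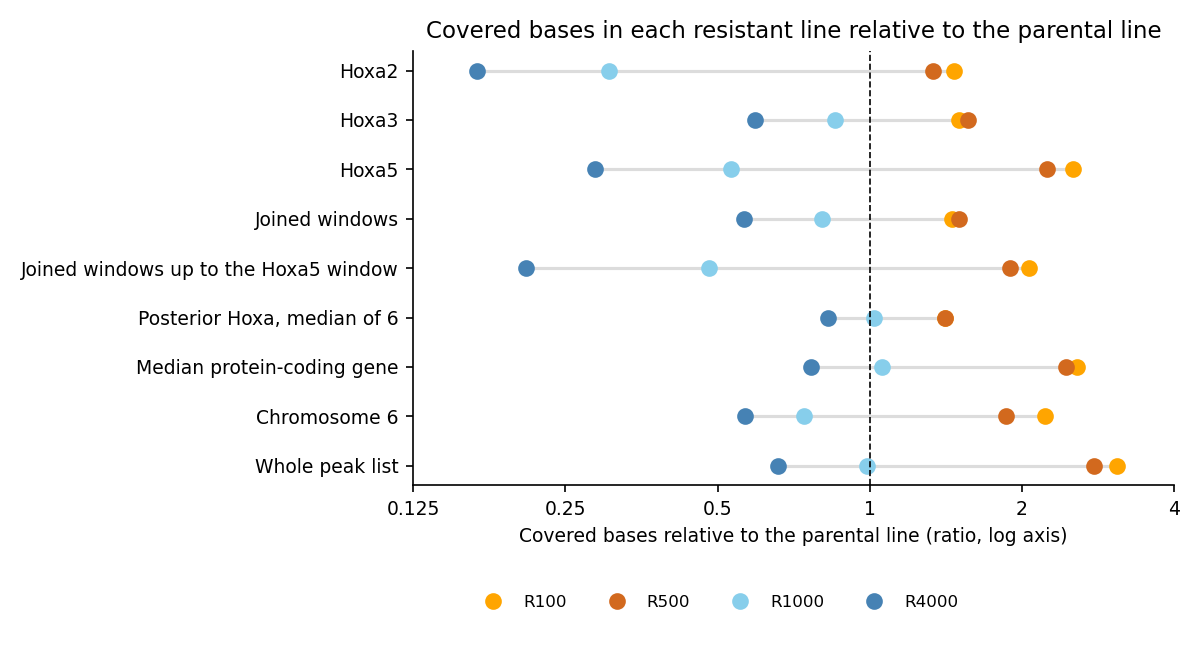
Covered bases in each resistant line relative to the parental line on a log axis, for the members with a parental value above 0, the joined windows, the posterior Hoxa genes (median of 6), the median protein-coding gene, chromosome 6 and the whole peak list; the dashed line marks equality. At Hoxa2 the R1000 and R4000 points, at 0.306 and 0.167, lie left of those of the median gene, which is taken over genes with at least 150 bp in both lines, a minimum that Hoxa5 missed in R4000.

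A promoter was counted as marked with at least 150 bp in peaks within 5 kb upstream of the TSS. There were 3 of 4 in the parental line (all but Hoxa4), 4 each in R100 and R500, 2 in R1000 (Hoxa3 and Hoxa5) and 1 in R4000 (Hoxa3). Over all protein-coding genes this was so for 3.64%, 9.13%, 8.16%, 3.93% and 2.73%. Over the whole window, 3, 4, 4, 3 and 2 members had at least 150 bp, against 7.67%, 21.7%, 17.0%, 8.86% and 7.05% of protein-coding genes. The Hoxa3 promoter in this count is that of the long transcript, and with the shorter transcript R4000 had 0 marked promoters. The bases that count for Hoxa5 lay at least 3815 bp upstream of its TSS, inside Hoxa6. No line had a peak within 2 kb of the Hoxa5 TSS.

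The posterior genes of the same cluster, Hoxa6, Hoxa7, Hoxa9, Hoxa10, Hoxa11 and Hoxa13, were covered in every line. The median share of their windows in peaks was 55.5%, 76.9%, 78.4%, 56.8% and 44.9%, above every member in every line. The median ratio to the parental line was 1.41 in both R100 and R500, then 1.02 in R1000 and 0.829 in R4000, and in R4000 the 6 genes ranged from 0.565 to 0.936. Hoxa2 and Hoxa5, at 0.167 and 0.286, lay below that range in R4000, and Hoxa3 lay inside it. The Hoxa3 window shares bases with Hoxa6 and Hoxa7, and the covered bases of the Hoxa5 window all lie inside Hoxa6. The Hoxa5 value in R4000 rests on 100 against 350 bp. With peaks within 1000 bp joined, Hoxa5 had 586 against 350 bp, above the parental line. Whether the members differ from the posterior genes was not tested.

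The paralogs of groups 2 to 5 in the other clusters (Hoxb2, Hoxb3, Hoxd3, Hoxb4, Hoxc4, Hoxd4, Hoxb5 and Hoxc5) had at least 150 bp in 4, 6, 6, 5 and 3 of 8 genes. Among those covered in both lines, 4 genes each in R100, R500 and R1000 and 3 in R4000, the median ratio was 2.27, 1.77, 0.890 and 0.574. Of those tested, 6 of 6 were higher in R100 and 6 of 6 in R500, beside 89.2% and 85.3% of all tested genes. In R1000 1 of 5 was higher and 0 lower, beside 38.7% and 25.6%. In R4000 4 of the 4 tested were lower and 0 higher, beside 44.7% and 26.5%. Hoxb2, the Hoxb counterpart of Hoxa2, had 600, 1500, 1050, 800 and 150 bp. In R1000 it was above the parental line, at 1.33 times, whereas Hoxa2 was below it, at 0.306 times. Hoxb5 had 0, 1300, 1500, 450 and 0 bp, whereas the parental line had 350 bp in the Hoxa5 window. Hoxb4 had 800 bp in R100 and 600 bp in R500 against 100 bp in each of the other lines. Skap2, which flanks the cluster on the anterior side, had 0 bp in peaks throughout. Evx1, beyond Hoxa13 at the posterior end, had 1700, 5750, 4150, 1000 and 800 bp.

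Genes that act with or on Hox genes were taken from fixed lists. Of 12 TALE cofactors and Cdx genes, which bind DNA with Hox proteins or switch Hox genes on, 3, 6, 5, 2 and 3 were covered over at least 150 bp. In R100, 6 of the 6 tested were higher than in the parental line, and in R500 5 of 5, near the 89.2% and 85.3% over all tested genes. In R1000 0 of 3 were higher and 1 lower, and in R4000 1 of 4 was higher and 3 lower, against 38.7% and 25.6% and against 26.5% and 44.7%. Cdx2 had 1050, 3350, 3700, 750 and 450 bp and Meis2 250, 1850, 1150, 0 and 0 bp.

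Of 12 genes of the retinoic acid pathway, whose ligand switches on anterior Hox genes in the embryo, 2, 6, 5, 2 and 2 were covered. Of those tested, 5 of 6 were higher in R100, 3 of 5 in R500 and 1 of 2 in R1000, and 1 of 2 was lower in R4000, beside 89.2%, 85.3% and 38.7% of all tested genes higher and 44.7% lower. Cyp26a1, which breaks retinoic acid down, had 0, 1750, 1700, 100 and 0 bp. Rarg, a retinoic acid receptor, had 300, 3450, 3350, 1800 and 400 bp. Of 22 Polycomb and Trithorax genes 4, 8, 6, 4 and 6 were covered. Of those tested, 5 of 8 were higher in R100, 3 of 6 in R500, 1 of 4 in R1000 and 2 of 6 in R4000, beside 89.2%, 85.3%, 38.7% and 26.5% of all tested genes, and none was lower, beside 2.36%, 3.21%, 25.6% and 44.7%. The PRC2 enzyme gene Ezh2 had 0 bp in peaks except for 50 bp in R1000, and Cbx8 had 2800, 3833, 3933, 3283 and 2833 bp.

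**Figure D5:**
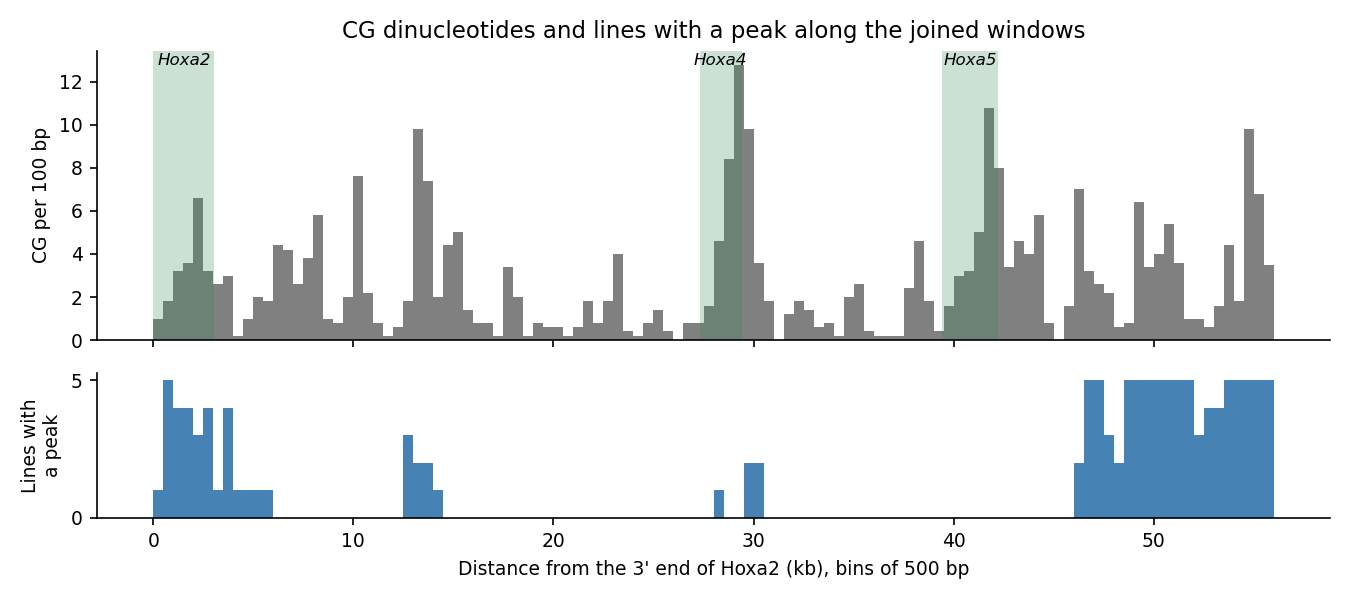
CG dinucleotides per 100 bp in bins of 500 bp (upper panel) and the number of lines with any peak in the bin (lower panel) along the joined windows, by distance from the 3′ end of Hoxa2 in kb; green bands mark Hoxa2, Hoxa4 and Hoxa5. The 2 densest bins, at the starts of Hoxa4 and Hoxa5, hold no peak in any line.

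CG density inside and outside peaks was compared over the same windows. In the joined windows peaks held 3.60, 3.78, 3.70, 4.14 and 4.13 CG per 100 bp, against 2.49 to 2.63 outside them. Up to the end of the Hoxa5 window, peaks held 2.74, 3.56, 3.82, 4.15 and 2.44 CG per 100 bp. Outside them there were 2.62, 2.53, 2.52, 2.60 and 2.63, so the parental line was close and R4000 lower inside peaks. At Hoxa2 R4000 had 2.67 inside peaks and 2.81 outside. At Hoxa5 peaks held fewer CG than the window, with 4.05 CG per 100 bp over the window and 1.61 to 2.93 inside the peaks of the 5 lines. At Hoxa4 the window held 3.47 CG per 100 bp and the peaks of R100 and R500 held 5.00 and 5.80. The 3 long stretches without a peak in any line held 2.42, 1.38 and 2.66 CG per 100 bp, so they were not free of CG. Bases along 1 locus are not replicates, and these densities are a description.

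Other genes with a like pattern were ranked by the sum, over the 5 lines, of the absolute difference in percent of the window covered, among 21893 protein-coding genes whose window shares no base with a member. Nearest to Hoxa2 was Islr2, with 17.3%, 33.8%, 29.2%, 8.45% and 5.38% of its window in peaks and a summed difference of 9.83 percentage points, followed by C530028O21Rik at 13.9 and 1600029O15Rik at 16.0. Nearest to Hoxa3 were Sp6 at 6.72, 4930597O21Rik at 6.93 and Jub at 6.93. Nearest to Hoxa4 were Fabp3 at 1.56, the homeobox gene Nkx6-1 at 1.64 and Onecut1 at 1.96. Nkx6-1 shared with Hoxa4 the 0 bp in the parental line, R1000 and R4000, and it had 1100 bp in R100 and 750 bp in R500. Nearest to Hoxa5 were Phyhip at 2.49, the LIM homeobox gene Lhx6 at 3.41 and Batf3 at 3.94.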

How the data were processed

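Only the H3K27me3 ChIP-seq samples were analysed; the 5 RRBS samples were not analysed here. Per the study's methods, immunoprecipitated and input libraries were read in 50-bp reads and peaks were called by Poisson statistics in tiled windows. The labels name mm9 and Bowtie, with no version. The values the authors deposited are chromosome, start and end of each peak, as base positions alone; no read number or peak height comes with them, and the threshold of the lists and whether replicates were pooled are not given in the sources used here. Every entry of the R100 and R500 lists appears 2 times, and repeats were dropped.

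All 21 chromosomes with peaks lay within NCBIM37 (mm9) lengths. GENCODE gene entries of 1 symbol were joined, and covered bases were summed with numpy 2.4.6, pandas 2.3.3 and scipy 1.17.1 under Python 3.11.15. This step was tested on simulated intervals, where 0 of 1344 windows were wrong. Figures were drawn with matplotlib 3.10.9. Sequences are from NCBIM37. Samples were grouped by title. No test was made. Named genes are the members, the genes of the lists and, for likeness, the 3 nearest genes per member with windows of at least 5500 bp. The members and lists were chosen with earlier results of these data known. Some genes of the lists are not reported here and were left out of the counts. Alternatives changed peak width, joining of peaks, list size, window, scaling, overlap, fold and the set of genes, and, added after the data had been seen, the extent of Hoxa3.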

Additional observations from a re-analysis of the deposited data

Results flagged for a closer look

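The lines selected at low and at high mafosfamide concentration lay on opposite sides of the parental line over the joined windows of Hoxa2, Hoxa3, Hoxa4 and Hoxa5. The ratio of covered bases to the parental line was 1.46 in R100 and 1.504 in R500, and 0.805 in R1000 and 0.563 in R4000. As a share of the whole list, R100 and R500 turned to 0.472 and 0.542 times the parental value, which put all 4 lines below it. What drew attention is this difference in direction between lines under the same comparison. It was not tested, since there is 1 list per line and all ratios share the parental list. The covered length of the whole lists moved with it, at 3.09, 2.78, 0.988 and 0.658 times, and its part in the result was not tested.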

How the results depend on the processing

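Read depth and peak height are unknown, so covered length cannot be read as the level of the mark. No paired analysis was possible because there is 1 list per line. For R100, R500, R1000 and R4000 the ratio of covered bases in the joined windows to the parental line kept its side of 1 under all alternatives but 1: as a share of the whole list it turned to 0.472 in R100 and 0.542 in R500, and was 0.856 in R4000. Counting genes without their upstream part gave 1.81 in R100 and 1.76 in R500. Joining peaks within 1000 bp gave 1.20 in R500. Peaks of at least 500 bp gave 0.487 in R1000 and 0.423 in R4000, and 2 kb on both sides of the TSS gave 0.5001 and 0.449. Leaving out the stretch beyond the Hoxa5 window, or taking Hoxa3 as its shorter transcript (both added after the data had been seen), gave 2.06, 1.90, 0.482 and 0.209. The number of members with a marked promoter (3, 4, 4, 2 and 1 from the parental line to R4000) was 1, 4, 3, 1 and 1 with a minimum of 500 bp, 1, 3, 1, 1 and 1 with peaks of at least 500 bp, 2, 3, 3, 2 and 2 with 2 kb on both sides of the TSS, 3, 4, 4, 3 and 2 with any overlap, and 2, 4, 4, 2 and 0 with the shorter Hoxa3, and it did not change with every transcript start. With a fold of 2, members called higher were 2 in R100 and 2 in R500, beside 85.2% and 79.7% of all tested genes. Those called lower were 1 in R1000 and 2 in R4000, beside 20.5% and 38.4%. Of 105 member shares recomputed, 43 stayed inside their counting interval, 60 moved (shares of windows of another length among them) and 2 turned direction: with peaks within 1000 bp joined, Hoxa5 was covered over 6.84% in R1000 and 7.48% in R4000, above the parental line. Apart from the alternatives' own construction, causes were not tested.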
